A study of Mus musculus with 20 samples.

Results

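Transcript levels of mouse embryonic stem cell clones homozygous for the R595H form of TRIM71 were compared with those of WT clones. The members were chosen by genotype: R595H/R595H clones C14, C20 and C24 against WT clones C16, C7 and C5. These 6 clones hold 8 of the 20 libraries of the series, because C14 and C16 each have a library under both dates in the titles (20/1 and 5/2). Libraries of a clone were averaged so that each clone counts once. Of 13283 gene symbols in the table, 9588 had a mean of at least log2 of 10 over the 6 clones and were tested. All cells were labelled C57BL/6 and male and were kept in medium with FCS, LIF and the 2i inhibitors, which hold stem cells in the naive state. For comparison there were 3 heterozygous clones (R595H/+, C15, C21 and C23), and 4 libraries each of Trim71-cond (genotype Trimfl/fl, floxed alleles) and Trim71-KO cells. Nothing in the labels says how the clones were derived, whether WT clones went through the same editing, which part of the gene Trim71-KO lacks, or whether its libraries come from separate deletions.

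TRIM71, also called LIN-41, is an RNA-binding protein and ubiquitin ligase of early embryos and pluripotent cells. Its transcript is a classic target of the let-7 microRNAs, which rise as cells differentiate, and the protein in turn binds hairpins in messenger RNAs through its NHL domain and lowers their stability and translation. It is needed for closure of the neural tube in mice, and in people a change of the matching arginine is known from congenital hydrocephalus. The title of the series names 2 questions, how alike the homozygous change and the deletion are, and whether the cells are poised for neural differentiation.

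The codon that the change alters is shown to fix its place in the gene. In GENCODE vM21 on GRCm38, Trim71 lies on the minus strand of chromosome 9 from 114507133 to 114564369, with 4 exons and 855 codons. The altered codon is in exon 4, at 114513428 to 114513430, inside the coding sequence. The reference around it, read 5′ to 3′ on the coding strand over 27 bases (chr9:114513416-114513442), carries the arginine codon in capitals.
Trim71 codon changed in R595H: ggcaagctctgcAGGccctggggcgtg

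The deposited values are on a log scale, taken here as log2, and they carry a property that bears on every test below. After each gene was centred, the 20 libraries spanned 14 directions, and 5 further weighted sums of libraries were the same for every gene (root mean square at most 4.77e-07, against at least 0.102 in the 14). The weights of these 5 sums added up to 0 within each of the 5 genotype groups. The spread of libraries around their group means is therefore smaller than it would be for 20 unconnected libraries. Which step made the values so, and whether it also moved the group means, cannot be told from them. In the R595H/R595H clones the constraint was visible: C14 lay within an SD of 0.0476 over genes of a weighted mean of C24 (weight 0.681) and C20 (0.319), while pairs of WT clones differed by an SD of 0.147 to 0.203. The C14 libraries of both dates differed by an SD of 0.0331, those of WT C16 by 0.151. A small spread among the R595H/R595H clones is therefore no measure of how repeatable a value is. An added fit of all 20 libraries that counts the 5 directions as lost is called the counted fit below and is given beside the main results. It has 10 residual degrees of freedom, where the same fit of 20 libraries without that count would have 15. The counted fit treats libraries of a clone as separate, while the main fit of the clones uses clone averages and so rests on fewer values. A smaller p-value or a larger count of calls in the counted fit is therefore not a stricter check of the main fit. The counted fit also cannot restore whatever the directions once held.

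Other features of the libraries can be put briefly. Pou5f1, Sox2 and Nanog, factors that define pluripotent cells, were between 8.48 and 10.61 in all 6 clones. The endoderm factors Gata4, Gata6 and Sox17 stayed at or below 0.90, and of 22 feeder or fibroblast markers 12 were in the table and 2 passed the level filter. Ddx3y, a gene of the Y chromosome, was 7.86 in WT C5 but between 4.37 and 5.30 in every other WT and R595H/R595H library, although all are labelled male. Lars2 was at 12.44 in C20 and 17.96 in C24, both R595H/R595H. The part that low Y-linked values or Lars2 play in the results was not tested beyond the fits named in the closing section.

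Trim71 itself was the first gene examined. It read 9.53, 9.49 and 9.48 in WT C16, C7 and C5 and 10.14, 10.00 and 10.18 in R595H/R595H C14, C20 and C24, the clone order used throughout. Every R595H/R595H clone stood above every WT clone. The transcript rose by 0.61 ± 0.07 on the log2 scale (SE), or 1.53-fold (limma adjusted p 0.000634, and 7.81e-07 in the counted fit). A two-sided exact permutation test over the 6 clones gave p = 0.1, the smallest that 3 against 3 allows. Of 14 other tested genes within 1000000 bases on either side, limma called 0 (0 also at an unadjusted p under 0.05), and their differences lay between -0.14 and 0.17. Cnot10, the next tested gene on the start side, differed by 0.02 (adjusted p 0.924).

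Across the genome 330 of 9588 genes were called at an adjusted p under 0.05 (limma with Benjamini-Hochberg adjustment), which is 3.44% of those tested. Of these, 211 were higher in R595H/R595H (2.2%) and 119 lower (1.24%). In all 330 the clones of the groups did not overlap, against 29.7% of all tested genes. The changes were small, with a median of 0.42 among the genes that rose and -0.39 among those that fell, and 32 genes passed 1.5-fold, 26 up and 6 down. The counted fit called 390 genes (4.07%), 239 higher and 151 lower, and 185 of the 211 and 105 of the 119 were called in it too. Leaving out single clones moved the count more, from 67 (R595H/R595H C14 left out) up to 542 (R595H/+ C21 left out), with 68 without WT C7, 73 without WT C5, 81 without WT C16, 172 without R595H/+ C15 and 210 without R595H/R595H C24. With all libraries scaled to the same total, 158 were called and the split turned to 72 higher and 86 lower. A core of 44 genes, 34 higher and 10 lower, was called in all 9 fits that each leave out a clone and also in the counted fit. Among the guidance genes, lipid transporters and other large rises and falls described first, genes belong to that core unless said otherwise. In the gene lists that follow, core members are named as such. Counts of called genes in every list are to be read against the shares of all tested genes, 3.44% called, 2.2% higher and 1.24% lower.

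**Figure D1:**
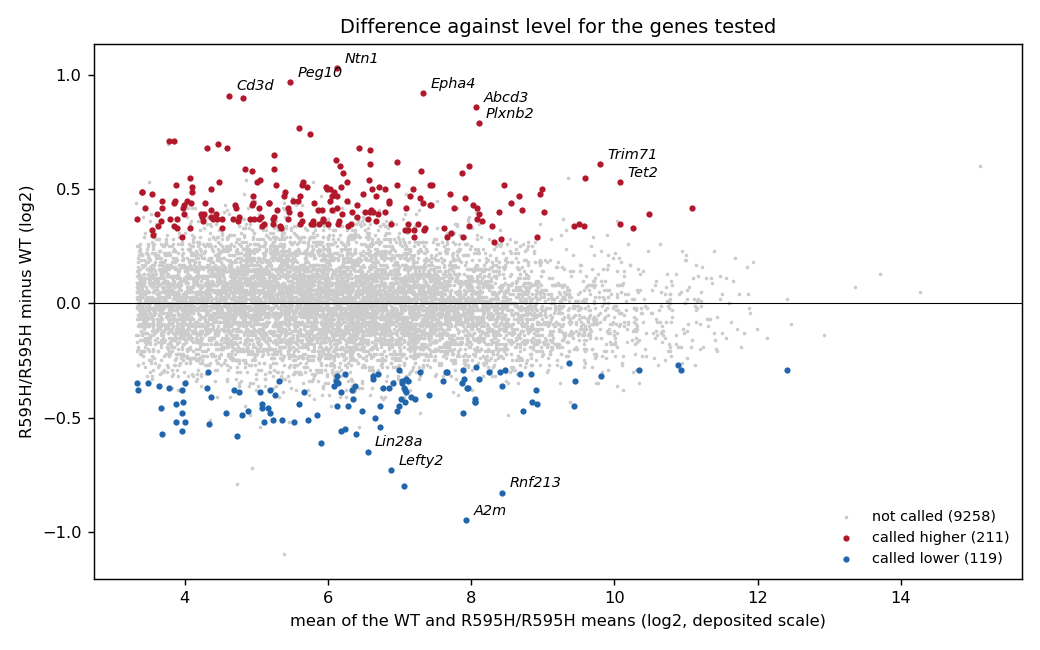
Each point is a tested gene, placed by the mean of its WT and R595H/R595H means on the horizontal axis and by R595H/R595H minus WT on the vertical axis, both in log2 units. The 211 genes called higher are red, the 119 called lower blue and the rest grey; Ntn1 is at the top (1.03) and A2m is the lowest called gene (-0.95).

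The largest rise was that of Ntn1, which encodes netrin-1, a secreted cue that attracts or repels growing axons and also acts in branching organs. It read 5.60, 5.70 and 5.53 in the WT clones and 6.62, 6.77 and 6.54 in the R595H/R595H clones. The gap between the lowest R595H/R595H and the highest WT clone was wider than the range of the WT clones. The largest rises and falls were named from called genes whose groups do not overlap, so a gap as such follows from that choice. Ntn1 rose by 1.03 ± 0.11, or 2.05-fold, the only called gene past 2-fold (adjusted p 0.000519). Of its receptors in the netrin and slit list, those tested were not called: Neo1 (neogenin) differed by -0.13 ± 0.07 (adjusted p 0.323) and Unc5b by 0.12 ± 0.12 (0.608). Among the 13 tested genes of that list 1 was called, Ntn1 itself.

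Among plexins, the receptors of semaphorins, Plxnb2 stood at 7.79, 7.61 and 7.74 in WT and 8.47, 8.64 and 8.39 in R595H/R595H. Among the R595H/R595H clones C20 was highest. Plxnb2 rose by 0.79 ± 0.09 (adjusted p 0.000519). Of the 10 tested plexins and semaphorins 2 were called higher and 0 lower, where 2.2% of all tested genes were called higher. The other was Sema6a, a membrane-bound semaphorin, at 0.48 ± 0.08. Sema6a passed the level filter only through its R595H/R595H values (mean 3.78, against 3.29 in WT), so its call adds nothing for the list. Plxnb1, the nearest relative of Plxnb2, differed by 0.09 ± 0.08 (adjusted p 0.546).

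Of 7 tested Eph receptors and ephrins, which signal between touching cells, 2 rose, where 2.2% of all tested genes were called higher. Epha4 read 6.88, 7.06 and 6.68 in WT and 7.72, 8.01 and 7.64 in R595H/R595H. The gap between the groups was wider than the range of the WT clones, and the difference was 0.92 ± 0.12 (adjusted p 0.0018). Epha2, at 0.44 ± 0.11 (adjusted p 0.0404), was outside the core and called in 2 of the 9 leave-out fits. Ephb2 and Ephb4 were at 0.24 and 0.35 without passing (adjusted p 0.24 and 0.161), and the list median was 0.24 (0.06 to 0.44 under the alternatives in the closing section) where that of all tested genes was -0.002.

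Transporters of lipids formed a further pair of strong rises. Abcd3 carries branched-chain and other fatty acids into peroxisomes, and it had the smallest adjusted p of all genes (7e-05). It read 7.53, 7.75 and 7.64 in WT and 8.53, 8.48 and 8.50 in R595H/R595H, a rise of 0.86 ± 0.07. The R595H/R595H clones lay closer together than the WT clones did, but C14 was close to a weighted mean of C24 and C20 over all genes. Abca1, which exports cholesterol to lipoproteins, read 5.10, 5.21 and 5.35 in WT and 5.99, 5.88 and 6.08 in R595H/R595H. It rose by 0.77 ± 0.09 (adjusted p 0.00113). The other 19 of 21 tested ABC transporters were not called, and their list median was 0.03. Peroxisome genes as a group did not follow Abcd3: of 38 tested 1 rose and 1 fell, Crot, a carnitine acyltransferase of peroxisomes, by 0.42 ± 0.09 (outside the core, 5 of 9 fits).

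Several other genes of the core were among the largest rises. The paternally expressed imprinted gene Peg10, derived from a retrotransposon, read 5.18, 5.05 and 4.73 in WT and 6.01, 6.05 and 5.81 in R595H/R595H. It rose by 0.97 ± 0.14 (adjusted p 0.00335, and 0.0123 in the counted fit), and of 19 tested imprinted genes it was the only one to rise, while Slc38a4, an amino acid transporter gene, and Commd1 each fell by 0.45 ± 0.09 (outside the core, 5 and 6 of 9 fits). Cd3d and Cd3g encode subunits of the T cell receptor complex and lie next to each other on opposite strands of chromosome 9, from 44969572 to 44987339. They rose together from low levels, Cd3d from 4.31, 4.16 and 3.99 to 5.15, 5.10 and 4.97, and Cd3g by the same measure from 4.38, 4.25 and 4.44 to 5.33, 5.31 and 5.14. Each difference was about as large as that of Epha4 (0.91 ± 0.12 and 0.90 ± 0.11). The counting step is not given, so whether reads of neighbouring genes were kept apart by strand is unknown.

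Further rises in the core spanned metabolism and signalling. Eloa (elongin A, of transcription elongation) rose by 0.68 ± 0.09, the secreted protease Htra1 by 0.67 ± 0.09, and Ddah1, which breaks down methylarginines, by 0.62 ± 0.11. Oxct1, a mitochondrial enzyme of ketone body use, rose by 0.60 ± 0.08, the focal adhesion gene Lpp by 0.57 ± 0.09, the mitochondrial RNA-binding protein gene Grsf1 by 0.55 ± 0.07 and the nucleoside diphosphate kinase gene Nme4 by 0.54 ± 0.08. Grsf1 read 9.32, 9.29 and 9.34 in WT against 9.85, 9.86 and 9.89. Neither group spread by more than 0.05, far less than the gap between them, though C14 is not separate from C24 and C20. Ptgfrn, a membrane partner of tetraspanins, Arpc2, a subunit of the actin-branching Arp2/3 complex, Plpp3, a lipid phosphatase, and Syne2, which ties the nucleus to the cytoskeleton, rose by 0.48 to 0.52. Of these, Syne2 read 8.73, 8.57 and 8.85 in WT and 9.16, 9.33 and 9.10 in R595H/R595H, and Arpc2 read 7.28, 7.05 and 7.17 against 7.72, 7.63 and 7.73. Adap1, Cln8, Crip2, Epp13, Map3k11, Tmem43 and C130074G19Rik are further core genes, at 0.48 to 0.60, as is Pard3 at 0.44 ± 0.07.

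Outside the core, Slc5a1, a sodium-glucose cotransporter gene, and Tfpi, an inhibitor of coagulation, rose by 0.74 ± 0.16 and 0.63 ± 0.14 but were called in 5 and 4 of the 9 leave-out fits.

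**Figure D2:**
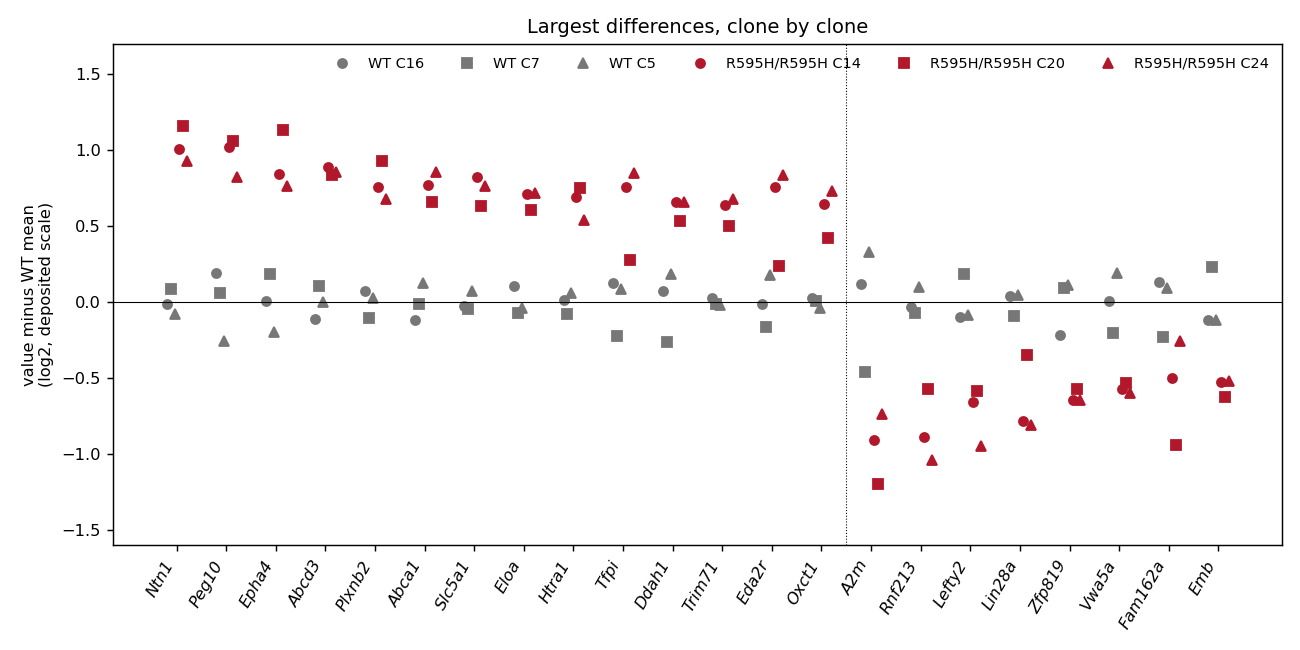
Values of 14 of the largest rises (left of the dotted line) and 8 of the largest falls (right), each clone minus the mean of the 3 WT clones of that gene, on the log2 scale. WT clones are grey and R595H/R595H clones red. The genes were picked from called genes whose groups do not overlap, so the lack of overlap here follows from that choice. C20 (red square) departs from C14 and C24 for Tfpi, Eda2r and Lin28a.

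Falls were fewer and smaller. A2m, a secreted protease inhibitor, had the largest called fall, from 8.53, 7.95 and 8.74 in WT to 7.50, 7.21 and 7.67 in R595H/R595H. WT C7 stood closest to the mutant clones. A2m fell by 0.95 ± 0.16 (adjusted p 0.00737), and the call was lost without R595H/R595H C14 (adjusted p 0.0571) while the size held there at -0.97. Rnf213, a large ubiquitin ligase gene linked to moyamoya disease and to defence against microbes, read 8.82, 8.78 and 8.95 in WT and 7.96, 8.28 and 7.81 in R595H/R595H. It fell by 0.83 ± 0.11 (adjusted p 0.00154) and belongs to the core. Other interferon pathway genes did not follow, with Rnf213 the only one called of 25 tested and a list median of 0.04.

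The remaining falls of the core were of mixed kind. BC067074 fell by 0.80 ± 0.10, Sar1b, a GTPase of export from the endoplasmic reticulum, by 0.54 ± 0.08, and Zfyve16, an endosomal protein gene, by 0.51 ± 0.08. Sar1b read 6.95, 7.03 and 6.99 in WT and 6.47, 6.43 and 6.44 in R595H/R595H. The meiotic helicase gene Hfm1 (fell by 0.57 ± 0.09) and Nphs1 (nephrin, fell by 0.52 ± 0.09) lay near the level filter. Pnpla8, a phospholipase gene, and Iqgap2 each fell by 0.45 ± 0.08, and 2210011C24Rik fell by 0.52 ± 0.08.

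Both Lefty genes, secreted antagonists of Nodal that lie close together on chromosome 1, were lower. Lefty2 read 7.15, 7.43 and 7.16 in WT and 6.59, 6.66 and 6.30 in R595H/R595H and fell by 0.73 ± 0.16 (adjusted p 0.0246), but it was not called in the counted fit (adjusted p 0.123). Lefty1 fell by 0.56 ± 0.10 (adjusted p 0.0111, and 0.0027 in the counted fit), and without WT C5 its adjusted p was 0.0506. These were the only genes called among 26 of Nodal and BMP signalling. The coreceptor gene Tdgf1 differed by -0.20 ± 0.08 (adjusted p 0.152), and the list median was -0.03.

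Lin28a, which blocks the maturation of let-7 and is often named with TRIM71, fell by 0.65 ± 0.11 (adjusted p 0.00913). Its values were 6.92, 6.79 and 6.93 in WT and 6.10, 6.53 and 6.07 in R595H/R595H, with C20 between the other mutant clones and WT. The call was lost without WT C16 (adjusted p 0.0555) or WT C5 (0.0506). Of 30 tested genes of Lin28 and let-7 targets, 2 rose (Trim71 and Arid3b, the latter by 0.52 ± 0.12, called in 3 of 9 fits) and 1 fell. The list median was -0.04, and 3.44% of all tested genes were called. In a list of 48 genes of microRNA and mRNA decay machinery, 0 rose and 1 fell: Zcchc11, a terminal uridylyltransferase that acts on let-7 precursors, by 0.33 ± 0.07. The median there was -0.07, with 16 of the 48 above 0.

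Reported mRNA targets of TRIM71 were mostly unmoved by the test. Of 9 tested, Plxnb2 was the only one called. Cdkn1a, the inhibitor of cyclin-dependent kinases and the best known of these targets, differed by 0.30 ± 0.13 (adjusted p 0.211), Rbl2 by 0.19 ± 0.10 (0.268), Rbl1 by 0.13 ± 0.11 (0.517), Mbnl1 by 0.05 ± 0.09 (0.782) and Ago2 by -0.18 ± 0.08 (0.201). The list median was 0.05. The smallest difference called anywhere in the comparison was 0.26, with standard errors of 0.07 to 0.13 for most genes. That is not a detection limit, as Cdkn1a at 0.30 was not called. Shifts of these targets below 0.26, and some above it, could thus have been missed.

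Basement membrane genes held the largest number of calls of any adhesion list: 5 of 31 tested rose and 0 fell, against 3.44% called in all, with a list median of 0.07. Lama1, the laminin alpha chain of early embryos, read 6.99, 7.03 and 7.00 in WT and 7.57, 7.68 and 7.52 in R595H/R595H. It was the only core member, with a rise of 0.58 ± 0.08 (adjusted p 0.0028). Itgb1, the integrin beta chain that binds laminin, rose by 0.40 ± 0.07 (called in 7 of 9 fits), the laminin chain Lamc1 by 0.35 ± 0.08 (3) and the collagen chain Col4a2 by 0.49 ± 0.12 (3). Lama1 and Col4a2 are also in the list of endoderm markers, whose summed back-transformed level was 925 to 1080 in the WT clones and 1140 to 1370 in the R595H/R595H clones. Apoe, which was not called, had the highest values of that list (9.02 to 9.73) and weighs most in these sums. The defining endoderm factors Gata4, Gata6 and Sox17 were at or below 0.90 in every clone, and of the 5 list members that passed the level filter the other 3 were not called: Apoe (0.37 ± 0.19, adjusted p 0.288), Col4a1 (0.18 ± 0.15, 0.537) and Sparc (-0.14 ± 0.12, 0.538).

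Targets of p53 numbered 6 risen and 0 fallen of 34 tested, against 2.2% of all genes called higher and 1.24% lower. Their median was 0.15, with 24 above 0 and 18 of the 34 not overlapping between the groups, where 29.7% of all genes did not. Dglucy rose most, by 0.65 ± 0.12, from 4.96, 4.71 and 5.08 to 5.49, 5.81 and 5.39 (adjusted p 0.00967, and 0.0597 without WT C7). The death receptor gene Eda2r rose by 0.61 ± 0.14, with C20 (6.52) barely above WT C5 (6.46), and was called in 3 of 9 fits. Phlda3, an inhibitor of AKT, rose by 0.47 ± 0.10 and Perp, of cell junctions and death, by 0.37 ± 0.10 (adjusted p 0.0584 in the counted fit). Ak1 and Pidd1 rose by 0.40 ± 0.09 and 0.39 ± 0.10. On the other side, Pltp was at -0.38 ± 0.13 (adjusted p 0.103, and 0.0377 in the counted fit), Pmaip1 at -0.30 ± 0.10 (0.115) and Mdm2, the p53 ubiquitin ligase, at -0.12 ± 0.08 (0.391). None of the 6 was in the core. Gadd45a, a stress gene tied to p53 and growth arrest, was in it: 3.91, 3.94 and 4.06 in WT against 4.73, 4.38 and 4.83, a rise of 0.68 ± 0.11.

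Genes of the amino acid response, which ATF4 drives when amino acids are short, had 3 of 37 risen and 0 fallen, against 2.2% of all genes called higher, with 32 above 0 and a median of 0.15 (-0.002 over all genes). Asns (asparagine synthetase) rose by 0.42 ± 0.08, from 10.83, 10.94 and 10.84 to 11.23, 11.49 and 11.14, with C20 highest. Cth (cystathionine gamma-lyase) rose by 0.50 ± 0.10 and Herpud1 by 0.37 ± 0.10, though the latter missed the threshold in the counted fit (adjusted p 0.056) and passed the level filter only through its R595H/R595H mean of 3.52. Asns and Cth were each lost without WT C16 (adjusted p 0.0753 and 0.0751) and without WT C5 (0.0704 and 0.0741).

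The naive pluripotency list had 3 risen and 0 fallen of 30, where 2.2% of all tested genes were called higher and 1.24% lower. Its median was 0.08. Tet2, an enzyme that oxidises methylcytosine, read 9.71, 9.89 and 9.85 in WT and 10.35, 10.43 and 10.27 in R595H/R595H, a rise of 0.53 ± 0.07. Klf4, a factor of the naive network, rose by 0.47 ± 0.07, from 8.44, 8.45 and 8.39 to 8.87, 8.98 and 8.83. Both are in the core. Tbx3 rose by 0.29 ± 0.07 but was called in 2 of 9 fits, Nanog was at 0.23 ± 0.07 (adjusted p 0.0938) and Klf5 at -0.23 ± 0.09 (0.154), so members lay on both sides. Formative and primed genes went both ways, with 16 tested, where 3.44% of all tested genes were called. Of the 16, 3 rose, among them Dnmt3b (0.47 ± 0.11) and Krt8 (0.42 ± 0.11), while Lin28a and Sox4 fell (Sox4 by 0.53 ± 0.09). Krt8 did not pass in the counted fit (adjusted p 0.0767). Among 22 DNA methylation genes Tet2, Gadd45a and Dnmt3b rose, where 2.2% of all tested genes were called higher. Dnmt3a was at -0.25 ± 0.09 (adjusted p 0.112).

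Neural genes, which the title of the series raises, had calls in both directions. Of 10 tested neural progenitor genes, where 3.44% of all genes were called, Meis2 rose by 0.45 ± 0.12 and Gli3 fell by 0.41 ± 0.09, each called in 3 of 9 fits. Sox11 and Nes, markers of neural precursors, differed by 0.02 ± 0.08 and -0.01 ± 0.11 (adjusted p 0.905 and 0.96). Of 16 neuronal genes 2 rose (Nefm and Syt11) and 1 fell. Nefm, a neurofilament gene, rose by 0.71 ± 0.11 and is in the core, from 3.47, 3.44 and 3.54, just above the level filter, to 4.30 in C14 and C24, with C20 between these and the WT clones. Dpysl2, of growth cone collapse, fell by 0.51 ± 0.09 (adjusted p 0.0519 without WT C7). Tubb3 was at 0.15 ± 0.13 (adjusted p 0.529). The medians of the lists were 0.07 and 0.00.

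Germ line genes had 1 risen and 2 fallen of 20, where 3.44% of all tested genes were called, with a median of -0.20 and 5 above 0. The low median came mainly from C20. Around the mean of the 6 clones, the median member was at -0.23 in C20 but at -0.02 in C14 and -0.0 in C24. In WT C16, C7 and C5 it was at 0.07, 0.12 and -0.01. The counted fit called 2 higher and 4 lower in the list. Ddx4, the helicase that marks germ cells, fell by 0.52 ± 0.09 (adjusted p 0.0508 without WT C16), Mael fell by 0.38 ± 0.09 and Piwil2 rose by 0.51 ± 0.09, although all are genes of the piRNA pathway. Lysosome genes had 3 risen of 37, where 2.2% of all tested genes were called higher. Lamp1 was among the 3, at 0.41 ± 0.08. Cholesterol and lipid synthesis had 1 fallen of 32 (Stard4, a cholesterol carrier, by 0.50 ± 0.12) with a median of -0.09. In glycolysis and hypoxia limma called 0 of 31 (8 at an unadjusted p under 0.05, and 1 lower in the counted fit), with a median of -0.12 and Pfkp at -0.38 ± 0.11 (adjusted p 0.0652). The clones of the groups overlapped in this list, with the median member at 0.12 in R595H/R595H C24 and -0.13 in WT C7. Lists with 0 called by limma, in the counted fit too, included 44 S phase genes (median -0.07, 8 at an unadjusted p under 0.05), 39 of mitosis (-0.02, 7) and 63 cytosolic ribosomal proteins (0.02, 7). The same held for 48 nuclear genes of oxidative phosphorylation (0.00, 4), 25 of the Wnt pathway (-0.04, 6) and 17 of the Notch pathway (0.04, 5). The median of the ribosomal list changed sign under 2 of the alternatives.

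**Figure D3:**
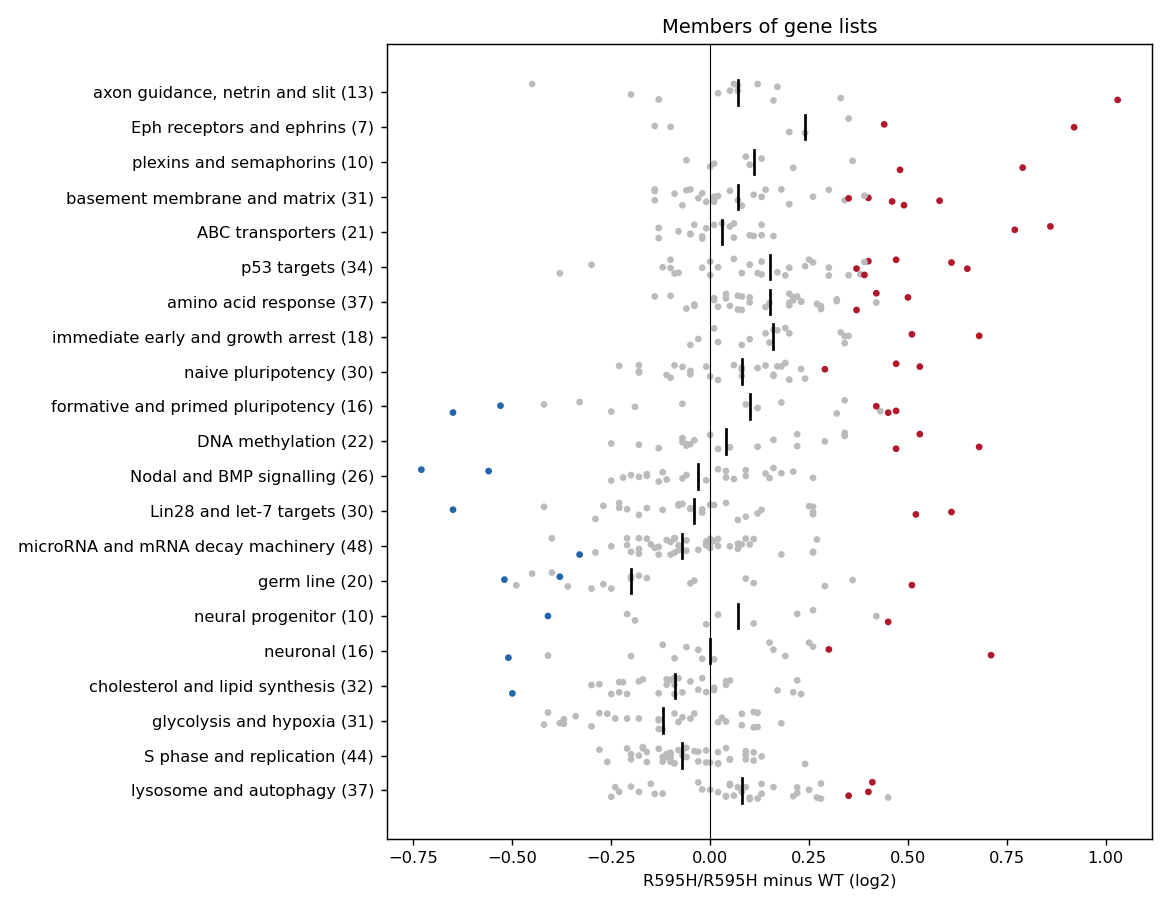
Each point is a tested member of a gene list, placed by R595H/R595H minus WT on the log2 scale; the number of tested members is in parentheses. Members called higher are red and lower blue, grey ones were not called, and the black bar is the list median, which lay between -0.20 (germ line) and 0.24 (Eph receptors and ephrins, 0.06 to 0.44 under the alternatives) in the lists shown. The germ line median came mainly from C20. Vertical scatter within a list has no meaning.

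Whole chromosomes were shifted in single clones. For each clone the value minus the mean of the other 5 was taken over all tested genes of a chromosome. On 16 autosomes other than 3, 8 and 11, the medians of the 6 clones lay between -0.044 and 0.042. On chromosome 3 the median was 0.151 in R595H/R595H C24 and 0.082 in C14 but -0.013 in C20, and between -0.091 and -0.033 in the WT clones. On chromosome 8 it was 0.170 in C20 alone, with the others between -0.058 and 0.012. WT C7 was at 0.098 on chromosome 11, and on X C24 and C14 were at 0.088 and 0.075 while C20 was at -0.105. Heterozygous clones, taken minus the mean of the 6, had shifts too. R595H/+ C21 was at 0.135 on chromosome 11 and 0.165 on X, and R595H/+ C23 was at 0.065 on chromosome 8. The shifts ran along the chromosomes: divided into 10 blocks of genes in map order, chromosome 3 had C24 medians of 0.102 to 0.195, and chromosome 8 had C20 medians of 0.073 to 0.206.

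**Figure D4:**
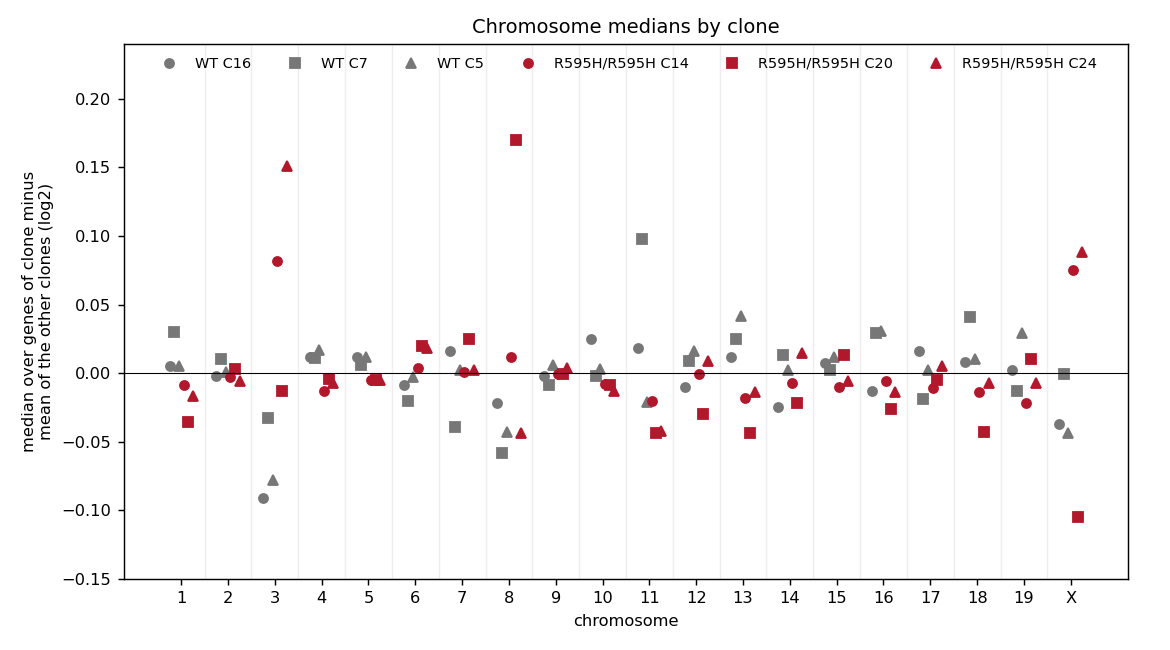
Median over the tested genes of each chromosome of a clone's value minus the mean of the other 5 clones, on the log2 scale. R595H/R595H C24 and C14 stand high on chromosome 3 (0.151 and 0.082), C20 on chromosome 8 (0.170) and WT C7 on chromosome 11 (0.098), while most medians of other autosomes lie near 0.

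These shifts fed into the comparison of genotypes. R595H/R595H minus WT had a median of 0.11 over the 459 tested genes of chromosome 3, of which 30 were called higher and 1 lower, and of 0.07 over the 500 of chromosome 8, with 21 higher and 2 lower. On the other autosomes except 11 the median was between -0.04 and 0.02. Without the genes of chromosomes 3 and 8, 276 of 8629 were called (3.2%), 160 higher and 116 lower. When each clone's chromosome median was subtracted first, 346 genes were called and 275 of the 330 were among them. Of the 30 called higher on chromosome 3, 12 were called then, and of the 21 on chromosome 8, 10. Genes of the core held, at smaller size where they lie on chromosome 3: Abcd3 by 0.75 (adjusted p 0.000113), Ddah1 by 0.50 (0.023) and Tet2 by 0.41 (0.012). The calls of Col4a2 (adjusted p 0.0717) and Herpud1 (0.0761) on chromosome 8 and of Syt11 on chromosome 3 (0.192) were lost. DNA copy number was not measured, and as C14 lay close to a weighted mean of C24 and C20, its shift is not a separate observation.

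The clones also differed within a genotype in single genes. Lars2, the mitochondrial leucyl-tRNA synthetase gene, was lowest in C20 (12.44) and highest in C24 (17.96) among the 6 clones. It varied between libraries of a clone as well, at 14.60 and 16.88 on the dates of WT C16, and R595H/+ C21 was at 13.06, so a difference between clones was not shown. The mitochondrially encoded mt-Nd6 was at 7.82 in C20 and 10.06 in C24 against 9.21 to 9.32 in WT. C20 further had Gsto1, a glutathione transferase, at 8.68, with 7.46 to 7.89 in the other 5 WT and R595H/R595H clones. WT C7 was low in the collagen gene Col4a1 (5.66, with at least 6.23 in all other clones, R595H/+ included). It was high in Dazl, a germ cell RNA-binding protein gene, among the 6 clones (8.37, against at most 7.88), but R595H/+ C21 was at 8.49. WT C5 was high in the imprinted gene Grb10 (7.42, against at most 6.90 in the other 5), with R595H/+ C15 and C21 at 7.15 and 7.18. The farthest genes of C14 stood only 0.10 to 0.11 from the nearest clone. None of these genes was called between the genotypes.

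Heterozygous clones were compared to see whether the homozygous values were shared. In R595H/+ against WT limma called 0 genes, with 733 at an unadjusted p under 0.05. That comparison shares the WT clones with the one above, so values are given side by side only. Trim71 was 9.55, 9.63 and 9.57 in R595H/+ C15, C21 and C23, and Abcd3 was 7.77, 7.85 and 7.78, both just above the WT range. Cd3d was 4.47, 4.94 and 4.71 in the same clones, between WT and R595H/R595H and overlapping neither. Peg10 was 4.67, 4.96 and 5.26, spanning the WT values. Between R595H/R595H and R595H/+ 74 genes were called (0.772%), 55 higher and 19 lower, and the counted fit called 133. Of the 55 higher, 40 were also called higher against WT, and of the 19 lower, 12 were also called lower. Both comparisons use the same R595H/R595H clones, so calls shared by them are not independent. By the smallest p among genes called against WT too, the higher ones were Abcd3 (0.70 ± 0.07, adjusted p 0.00109), Plxnb2 (0.70 ± 0.09, 0.00366), Trim71 (0.53 ± 0.07, 0.00522), Ntn1 (0.79 ± 0.11, 0.00696) and Abca1 (0.64 ± 0.09, 0.00696). Rnf213 (-0.75 ± 0.11, adjusted p 0.00696), A2m (-0.79 ± 0.16, 0.0356) and Lefty2 (-0.84 ± 0.16, 0.0299) were among the lower.

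Beside the deletion, which shares no libraries with this comparison, the genes called in R595H/R595H partly moved the same way. Trim71-KO against Trim71-cond called 9.24% of 9580 tested genes higher and 9.37% lower. Of the 211 genes that rose in R595H/R595H, 71 were called higher in Trim71-KO and 4 lower, and of the 117 that fell and were tested there, 47 were called lower and 1 higher. Their medians in Trim71-KO were 0.17 and -0.17, against -0.003 over all tested genes. With the lost directions counted Trim71-KO had 697 calls in place of 1783, and then 53 of the 211 were called higher and 1 lower, and 25 of the 117 lower and 0 higher. Ntn1 (1.32), Plxnb2 (0.86) and Abcd3 (0.75) rose in Trim71-KO too (adjusted p 4.47e-10, 1.35e-07 and 1.35e-07), as did Klf4 (0.74) and Lama1 (0.52), and Rnf213 (-1.05) and Lin28a (-0.89) fell there (7.73e-06 and 7.46e-05).

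The test of R595H/R595H effect minus Trim71-KO effect called 136 of 9587 genes (1.42%), but 36 in the counted fit. Trim71 differed most, since its transcript was 0.61 higher in R595H/R595H and 1.48 lower in Trim71-KO (difference 2.09 ± 0.08). Cd3g was 0.90 higher in R595H/R595H and at -0.01 in Trim71-KO (adjusted p of the difference 0.0093, and 0.0207 in the counted fit). The polarity gene Pard3 was at 0.44 and -0.21 (0.00877 and 0.0207). Peg10, at 0.97 and -0.34 (0.0093), and Epha4, at 0.92 and 0.35 (0.0378), also passed, though not in the counted fit (0.0602 and 0.0884). Lefty1 was lower in both, by 0.56 and 1.24, and the difference passed at an adjusted p of 0.0102. The comparisons began from different cells, so the kind of change and the cells it was made in cannot be told apart.

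**Figure D5:**
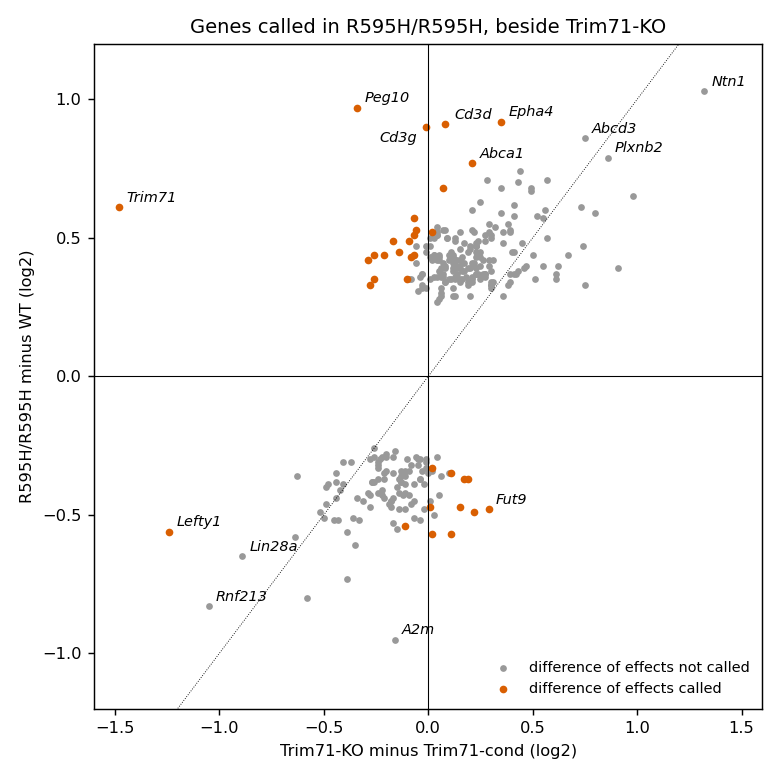
The genes called between R595H/R595H and WT, placed by Trim71-KO minus Trim71-cond (horizontal) and R595H/R595H minus WT (vertical), both log2; the dotted line marks equal differences. Orange points are genes for which the difference of the effects was called at an adjusted p under 0.05, such as Trim71, Peg10, Cd3g and Cd3d, while Ntn1, Abcd3, Plxnb2 and Rnf213 are grey and moved the same way in both comparisons.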

How the data were processed

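Bulk mRNA of 20 libraries was sequenced. The submitters' processing notes name CASAVA 1.8, STAR and DESeq2 with no role. The sources used here do not give the genome build, annotation, counting or transformation. The table deposited by the authors holds values on a log scale, taken as log2, for 13283 symbols. Of these, 1.58% are below 0. If they were shrunk at low levels, as regularized log values are, differences of low genes are understated. Read counts and depth are unknown, so no interval that needs them is given. Values were used as deposited. Libraries of a clone were averaged, and 9 clone values (3 per genotype) were fitted with limma 3.58.1 in R 4.3.3 (lmFit, then eBayes with trend and robust, Benjamini-Hochberg over all tested genes). The script was tested on simulated data of independent values that lack no directions, so that test gives no error rate for the deposited values. The counted fit adds the 5 absent directions of the libraries as covariates and was chosen after seeing the data, as was the subtraction of chromosome medians. The alternatives were other filters (none, or a mean of at least 5), scalings, dates, clones and covariates, with their effect in the closing section. Nothing says that the libraries of a group come from separate cultures, so p-values measure only the spread left between these samples in the deposited values. As 5 directions within groups are absent from that spread, p-values of the fits that do not count them may be too small. Positions are from GENCODE vM21, in which 13156 symbols were found once.

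Members, gene lists and tests were chosen with earlier results of these data known, and support nothing independently. Genes were named by a rule: Trim71, then 20 rises and 15 falls taken by size from called genes whose clones do not overlap and that reach a group mean of 5.64 (predicted genes passed over), up to 4 per list by p, genes called in every leave-one-clone-out fit, 5 per direction by p in the other comparisons, and 3 per clone lying farthest from the other clones. The text names part of these, and further list members without a call were picked after their values were seen. Dates are those in the titles. The date field of the labels differs for 1 R595H/+ library. Some genes that the rule names are not reported here.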

Additional observations from a re-analysis of the deposited data

Results flagged for a closer look

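For the genes below, the effect of R595H/R595H against WT and that of Trim71-KO against Trim71-cond differed in a test of the difference itself. They are those with the smallest p among genes called in R595H/R595H, 5 in each direction. Higher in R595H/R595H relative to the deletion were Trim71 (difference 2.09), Cd3g (0.92), the anion exchanger gene Slc4a2 (0.70), Pard3 (0.65) and the kinase gene Map3k11 (0.58). Lower were the fucosyltransferase gene Fut9 (-0.77), Lrif1 (-0.71), Vwa5a (-0.67), Slf1 (-0.62) and Zbtb41 (-0.56). Slc4a2 was 0.44 higher in R595H/R595H and 0.26 lower in Trim71-KO, and Fut9 was 0.48 lower in R595H/R595H and 0.29 higher in Trim71-KO. With the absent directions counted the difference was not called for Slf1 (adjusted p 0.0604) and Fut9 (0.0547), and was called for the other 8.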

How the results depend on the processing

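The count of genes called between R595H/R595H and WT was 190 with the 5/2 libraries only, 158 with equal library totals (all tested genes then shifted by a median of -0.037) and 141 with the mean of 7 Y-linked genes as a covariate, and leaving out a clone gave 67 to 542. No filter, a mean of at least 5, the 6 clones alone, no trend or robust setting, quantile normalization, clone as a random effect and both added fits kept it within 1.5 times. R595H/R595H against R595H/+ gave 116 with no filter, 19 with equal totals, 5 with the Y-linked mean, 214 with clone as a random effect, 133 with absent directions counted, and 7 to 115 without a clone. The difference of effects gave 83 with the 5/2 libraries only, 36 with absent directions counted and 44 to 135 without a clone. Trim71-KO gave 697 with absent directions counted and 1292 to 1637 without a library. Deviations from group means of libraries sharing a code (1A, 2B, 3A and 3B) correlated at -0.89, -0.089, -0.117 and 0.13. As directions within groups are absent from the values, these correlations cannot show whether the codes pair the samples. With the replicate block the Trim71-KO count was 1392. The Trim71 difference stayed between 0.57 and 0.67 without each clone. The Y-linked mean was 0.44 lower on the log2 scale in R595H/R595H (two-sided exact permutation p = 0.6), and -0.66 to 0.00 without each clone, the latter without WT C5. Of 98 called genes named by the rule, 44 were called under every alternative and 0 changed direction. The rule itself names the genes called in every leave-one-clone-out fit, so these 44 were in part selected by the same alternatives. Their share of the 98 does not stand for that among all 330 called genes. Of 39 list medians, 14 changed sign under some alternative.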
